A study of Mus musculus with 28 samples.

Results

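The genes of collagen, laminin and integrin chains were examined in Arc and starburst amacrine cells of the mouse retina at ages from P1 to P43, where P is the postnatal day. Members were all genes with a row of their own on the array whose symbol names a collagen chain (Col), a laminin chain (Lama, Lamb or Lamc), an alpha integrin (Itga) or a beta integrin among Itgb1 to Itgb8. These were 65 of 13617 genes, of which 38 were collagens, 7 laminins, 13 alpha integrins and 7 beta integrins. No member had more than 1 row, and another 4 rows that joined a member's symbol to that of another gene were left out. Arc amacrine cells, sorted on EGFP driven by the Arc promoter in the Tg(Arc-EGFP)194Gsat/Mmcd line, were measured on 1 array for each day from P1 to P20, on 2 arrays at P6 and on 1 array at P43. Starburst cells, which release acetylcholine within the retina, were sorted on RFP made after Cre recombination in mice carrying 129S6-Chat_tm1(cre)Lowl/J and Rosa26-LSL-RFP, with 3 arrays at P3 and 3 at P18. The labels name 1 mixed genetic background for all mice, of FVB/N-Swiss Webster hybrids with C57BL/6J. They add that the Arc line descends from hybrids known to carry a recessive mutation that causes photoreceptor degeneration and that F2 mice of a backcross were used. Each sample held 200 sorted cells from 1 retina. The series speaks of triplicates, but the table holds 1 value for most Arc days, and whether such a value is a mean over samples was not stated in the sources used here.

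Collagens and laminins are secreted proteins of the extracellular matrix. Laminin trimers of an alpha, a beta and a gamma chain, together with type IV collagen, build basement membranes, which in the retina include the inner limiting membrane and the sheaths of blood vessels. Fibrillar collagens form fibres, FACIT collagens such as type IX sit on those fibres, and a small group of collagens span the plasma membrane. Integrins are cell surface receptors for these proteins, each built of 1 alpha and 1 beta chain.

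Values are log2 expression, and a difference of 1 is a 2-fold difference. A level was called above background when the mean of a group exceeded the 95th percentile of 704 olfactory receptor genes, which amacrine cells are not known to use, in the same group. This background was 3.54 in Arc cells at P1 to P6, 3.52 at P7 to P13, 3.39 at P14 to P20, 3.70 on the P43 array and 4.005 at P3 and 3.997 at P18 in starburst cells. Taken per array, it was 3.36 to 3.90 on Arc arrays and 4.002 to 4.36 on starburst arrays. Array medians were 3.39 to 3.55 in Arc and 3.58 to 3.67 in starburst cells, and replicate starburst arrays correlated across genes with r from 0.950 to 0.966. All 10 pan-amacrine markers were above background in Arc cells and 8 in starburst cells. Of 7 measured starburst markers, 0 or 1 were above background in the Arc groups, against 6 at P3 and 7 at P18 in starburst cells. Chat, the enzyme that makes acetylcholine, had means of 2.77 to 2.85 in Arc cells and of 5.32 and 7.19 in starburst cells at P3 and P18. The gene Arc had means of 5.71 to 5.92 in Arc cells and of 4.33 and 4.71 in starburst cells. The mouse line and the fluorescent protein cannot be told apart from the cell type. The label for batch reads A and B on every Arc sample and B on every starburst sample, and no Arc value is labelled as B alone, so no fit could separate batch from cell type.

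Promoter sequences are shown for the 4 members with the widest contrasts below, as the stretch from 250 bases before to 50 bases after the annotated start (RefSeq, GRCm38.p6). Capitals mark matches on either strand to the CCAAT box (the other strand reads ATTGG), to the Sp1 type motif GGGCGG (the other strand reads CCGCCC) and to the TATA box letters TATAAA (the other strand reads TTTATA). No match to one of these motifs can contain a match to another. The Col6a1 window lies at chr10:76725995-76726294 on the minus strand, Col11a1 at chr3:114030290-114030589 on the plus strand, Col25a1 at chr3:130180595-130180894 on the plus strand and Itgav at chr2:83724147-83724446 on the plus strand.
Col6a1: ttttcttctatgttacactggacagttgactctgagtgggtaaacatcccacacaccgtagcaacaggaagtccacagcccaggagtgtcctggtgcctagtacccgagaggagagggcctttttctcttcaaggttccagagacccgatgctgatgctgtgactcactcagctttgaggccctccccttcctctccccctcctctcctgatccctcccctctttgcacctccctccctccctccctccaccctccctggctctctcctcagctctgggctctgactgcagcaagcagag
Col11a1: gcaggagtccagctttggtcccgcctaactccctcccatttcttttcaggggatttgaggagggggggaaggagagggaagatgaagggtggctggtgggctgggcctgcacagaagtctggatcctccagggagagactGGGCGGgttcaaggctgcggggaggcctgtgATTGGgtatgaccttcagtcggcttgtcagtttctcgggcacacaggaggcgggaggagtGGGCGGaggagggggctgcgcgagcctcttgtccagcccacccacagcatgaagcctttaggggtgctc
Col25a1: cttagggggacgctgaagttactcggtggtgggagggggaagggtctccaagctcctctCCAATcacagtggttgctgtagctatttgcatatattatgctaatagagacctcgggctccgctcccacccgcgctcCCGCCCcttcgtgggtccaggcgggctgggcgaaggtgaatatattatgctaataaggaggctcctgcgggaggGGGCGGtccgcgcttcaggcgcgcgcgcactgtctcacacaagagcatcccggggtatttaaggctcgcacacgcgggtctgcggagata
Itgav: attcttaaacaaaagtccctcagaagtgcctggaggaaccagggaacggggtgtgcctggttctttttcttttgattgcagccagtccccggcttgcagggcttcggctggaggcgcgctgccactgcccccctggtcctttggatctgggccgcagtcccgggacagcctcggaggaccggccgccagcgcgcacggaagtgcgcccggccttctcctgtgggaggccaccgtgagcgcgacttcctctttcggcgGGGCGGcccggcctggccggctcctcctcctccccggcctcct
Col11a1 and Col25a1 each held 1 CCAAT and 2 GGGCGG matches, Itgav held 1 GGGCGG match, and Col6a1 held none of the 3 motifs. Entries were found for 46 of 65 members, with 52 windows. GGGCGG was present in 30 of those 52 windows (57.7%), against 35.7% of all 32851 promoters. CCAAT was present in 14 (26.9%, against 37.4%) and TATAAA in 5 (9.62%, against 13.6%). Col4a1 and Col4a2, the common chains of type IV collagen, are read from a shared stretch in opposite directions. Their annotated starts lie 21 bases apart, each within the annotated transcript of the other gene, so the transcripts overlap there. Their windows share 78 bases at chr8:11312777-11312854, printed here on the plus strand with the GGGCGG match in capitals.
Col4a1 and Col4a2: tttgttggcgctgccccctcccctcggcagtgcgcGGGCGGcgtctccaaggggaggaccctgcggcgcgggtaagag

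Members were divided into those near background and those above it. Of 65 members, 30 were above background in at least 1 of the 6 groups, against 54.3% of all genes, and 17 were above it in all 6, against 34.2% of all genes. By family these 30 were 21 of 38 collagens, 4 of 7 laminins, 2 of 13 alpha integrins and 3 of 7 beta integrins. The number above background was 26 in Arc cells at P1 to P6 (49.1% of all genes were above it), 26 at P7 to P13 (49.6%), 27 at P14 to P20 (51%) and 23 at P43 (44.7%). In starburst cells it was 24 at P3 (39.4%) and 19 at P18 (39.1%). With a stricter background, the 99th percentile of the olfactory receptor genes, 10, 10, 16 and 6 members remained in the Arc groups and 6 in each starburst group. The share of all genes above this stricter background was not computed, so the drop cannot be set against theirs.

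The chains above background in all 6 groups were mostly collagens. Among these 17 were the fibrillar chains Col1a1, Col2a1, Col5a1, Col11a2 and Col27a1, the type IV chains Col4a1 and Col4a2, the FACIT chains Col20a1, Col9a2 and Col9a3, and the transmembrane chains Col13a1 and Col23a1. Col7a1, the anchoring fibril collagen, and Col6a2, a chain of the beaded filament collagen VI, completed the collagens. The others were Lamc1, the common laminin gamma chain, Lamc3, another gamma chain, and Itgb1, the beta chain shared by most matrix receptors. With the stricter 99th percentile, only Col20a1, Col23a1 and Col9a2 of these 17 were above background in all 6 groups. Col6a2, Col7a1, Col9a3 and Col13a1 were then above it in no group. Col20a1 had values between 6.18 and 7.85 over all 28 arrays. Levels of different probes cannot be set against each other.

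The 35 members near background in all 6 groups had single values from 1.81 to 4.16. They included most receptors: 11 alpha integrins (Itga2, Itga2b, Itga5, Itga6, Itga7, Itga8, Itga9, Itga11, Itgae, Itgal and Itgam) and 4 beta integrins (Itgb2, Itgb3, Itgb4 and Itgb6). Itga6, the alpha chain of laminin receptors, had group means of 2.78 to 2.97. The leukocyte chains Itgal, Itgam, Itgae and Itgb2 and the platelet chain Itga2b were in the same set. Near-background laminins were Lama2, Lama4 and Lamb3, and the 17 collagens were Col3a1, Col4a3, Col4a4, Col4a5, Col4a6, Col5a2, Col6a3, Col8a1, Col8a2, Col9a1, Col10a1, Col12a1, Col14a1, Col15a1, Col17a1, Col18a1 and Col24a1. A trimer of collagen VI holds the chains of Col6a1, Col6a2 and Col6a3, and here only the first 2 were above background in Arc cells. The signal of a probe near background is no proof that its transcript is missing, and a signal above it is no proof that it is present.

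Some members lay close to the dividing line. In starburst cells at P3, with a background of 4.005, Itgav and Col11a1 (means of 4.02 each) were just inside and Col16a1 (3.99) was just outside. In Arc cells at P1 to P6, with a background of 3.54, Col16a1 (3.59) was just inside and Col15a1 (3.48) just outside. Itga3, the alpha chain of a laminin receptor, was above background in 1 group only, Arc cells at P14 to P20, at a mean of 3.44 against 3.39. Col4a1, counted as above background in all 6 groups, had a mean of 4.005 against 3.997 in starburst cells at P18. There 0 of 3 arrays exceeded their own background, and 1 of 3 did for Col4a2. When every array of a group had to exceed its own background, 8 members remained in starburst cells at P3 and 10 at P18. The share of all genes under this rule was not computed.

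**Figure D1:**
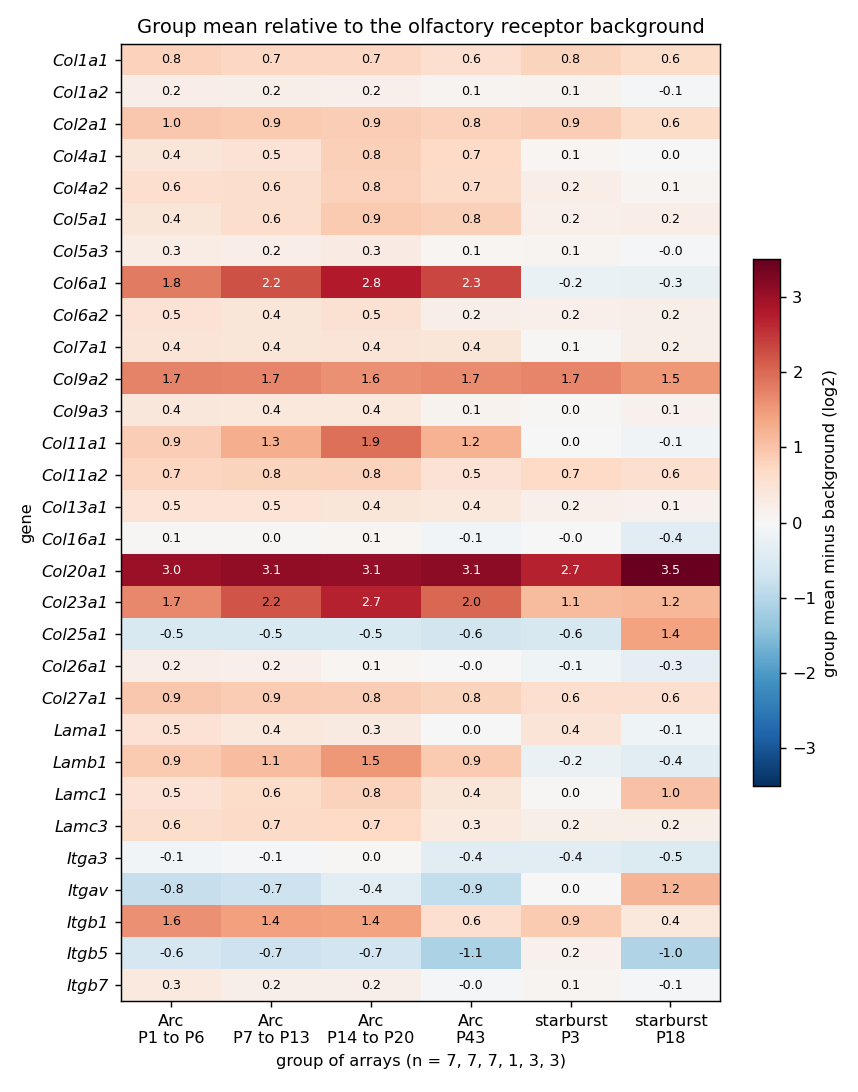
Heat map of the 30 members above background in at least 1 group (rows, by family) in the 6 groups of arrays (columns); colour and number give the group mean minus the background of the group (log2), red above and blue below. Rows above background throughout are the 17 members above it in all 6 groups, with Col4a1 almost at the background in starburst P18. Col25a1 is red in starburst P18 alone.

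In Arc cells, Col6a1, Col11a1 and Col23a1 rose over the first postnatal weeks. Small falls were called for other members, but how many depended on the scaling of the arrays. The age trend was a straight line in days through the 21 arrays from P1 to P20, and changes are given as the fitted difference between those days, positive for a rise, with limma adjusted p over all 13617 genes. The trend called 40 of 65 members, 9 higher and 31 lower, while it called 37.7% of all genes, 14.7% higher and 23% lower. The median change was -0.20 over the members, -0.13 over all genes and -0.16 over the olfactory receptor genes. After cyclic loess between arrays, the median of all genes was -0.02, and 9 members were called higher and 8 lower, with 27.9% of all genes called, so the count of members was then close to the share of all genes. The split was 9 and 10 after quantile normalization (28.2% of all genes called) and 11 and 10 after centring on array medians (28.6%). The falls are therefore described below for the 8 members above background that were also called lower after cyclic loess.

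Col6a1, a chain of the beaded filament collagen VI, had 4.74, 5.50 and 5.77 as its lowest, median and highest value on the 7 arrays of P1 to P6. The corresponding values were 5.53, 5.71 and 5.91 at P7 to P13 and 5.89, 6.30 and 6.38 at P14 to P20, with 6.05 on the P43 array. All late arrays were above all early arrays. Its fitted change was 1.24 ± 0.12 (SE, n = 21, limma adjusted p = 2.26e-08), a 2.36-fold rise.

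Col11a1, a fibrillar chain that regulates fibre width, had 3.97, 4.44 and 4.85 at P1 to P6, 4.54, 4.79 and 5.10 at P7 to P13 and 4.95, 5.25 and 5.81 at P14 to P20. The P43 array had 4.92, below every array of P14 to P20. The fitted change was 1.38 ± 0.14 (SE, n = 21, limma adjusted p = 2.53e-08), which is 2.61-fold, and the early and late windows did not overlap.

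Col23a1, a transmembrane collagen, had 5.07, 5.15 and 5.64 at P1 to P6, 5.47, 5.70 and 5.91 at P7 to P13 and 5.71, 6.22 and 6.38 at P14 to P20. Early and late arrays were again apart, and the P43 array, at 5.71, equalled the lowest late value at this rounding. The fitted change was 1.25 ± 0.13 (SE, n = 21, limma adjusted p = 3.05e-08). The windows of P1 to P6 and P14 to P20 were free of overlap for 8.81% of all genes and for 7 members. Besides these 3 collagens they were Col12a1, Itgav and Lama4, near background in Arc cells, and Itgb7.

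Smaller rises were called for Lamb1, the common laminin beta chain, for Col5a1, a fibrillar chain, and for Col4a1. Lamb1 had 3.81, 4.53 and 4.74 as its lowest, median and highest value at P1 to P6, 4.35, 4.64 and 4.85 at P7 to P13 and 4.69, 4.87 and 5.30 at P14 to P20. Neighbouring windows overlapped, and the fitted change was 0.69 ± 0.15 (SE, n = 21, limma adjusted p = 0.00117). Col5a1 changed by 0.50 ± 0.11 (limma adjusted p = 0.00134) and Col4a1 by 0.35 ± 0.11 (limma adjusted p = 0.0119), with early medians of 3.97 and 3.95 and late medians of 4.37 and 4.25. Col4a2, whose promoter window overlaps that of Col4a1, had a fitted change of 0.10 ± 0.08 that did not pass (limma adjusted p = 0.332). With the arrays of P1 to P16 only, these 3 rises no longer passed, at adjusted p of 0.0519 for Lamb1, 0.178 for Col5a1 and 0.188 for Col4a1.

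Among the falls, Lama1, the alpha chain of the embryonic laminin trimer, went from 3.68, 4.002 and 4.46 at P1 to P6 through 3.73, 3.88 and 4.05 at P7 to P13 to 3.52, 3.67 and 3.90 at P14 to P20. These values lie within about a log2 unit of the background of 3.39 to 3.54, and the windows overlap. Its fitted change was -0.52 ± 0.12 (SE, n = 21, limma adjusted p = 0.00157), lost with P1 to P16 only (adjusted p = 0.0664). Col9a2, a chain of FACIT collagen IX, fell by 0.42 on the log2 scale (limma adjusted p = 0.00403), from a median of 5.27 early to 4.96 late, and the P43 array had 5.36. Itgb7, a beta chain known mainly from leukocytes, fell by 0.41 (limma adjusted p = 5.48e-04), from a median of 3.85 to 3.65. The other 5 falls that were also called after cyclic loess were those of Col26a1 (-0.48), Col27a1 (-0.37), Col2a1 (-0.36), Col1a1 (-0.34) and Col1a2 (-0.29). Of these 5, only Col27a1 was still called with P1 to P16 only.

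Members above background without a called trend in Arc cells numbered 9. Itgb1 had 4.35, 5.17 and 5.57 at P1 to P6, 4.59, 4.96 and 5.30 at P7 to P13, 4.50, 4.77 and 5.27 at P14 to P20 and 4.28 on the P43 array. The windows overlapped widely, and its fitted change was -0.44 ± 0.21 (SE, n = 21, limma adjusted p = 0.0899). Lamc1 had a fitted change of 0.24 ± 0.11 (limma adjusted p = 0.0797) and Col20a1 of -0.15 ± 0.13 (limma adjusted p = 0.347). The others were Col4a2, Col5a3, Col6a2, Col11a2, Itga3 and Lamc3. Col20a1 stayed between 6.22 and 6.85 on all arrays from P1 to P20.

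The 38 members near background in every Arc window of the trend were called higher in 3 cases and lower in 19. Col12a1, a FACIT collagen, had a fitted change of 0.79 ± 0.10, Lama4, a laminin alpha chain of blood vessels, of 0.63 ± 0.10 and Itgav of 0.32 ± 0.09. Their highest values on the late arrays were 3.28, 3.47 and 3.22. Lama4 was above the array's own background on 2 of the 7 late arrays, and its late mean of 3.30 was below the group background of 3.39. The olfactory receptor genes themselves were called lower in 66 of 704 cases and higher in 0. In bulk samples, a change in the share of cells that use a gene and a change in RNA per cell cannot be told apart.

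**Figure D2:**
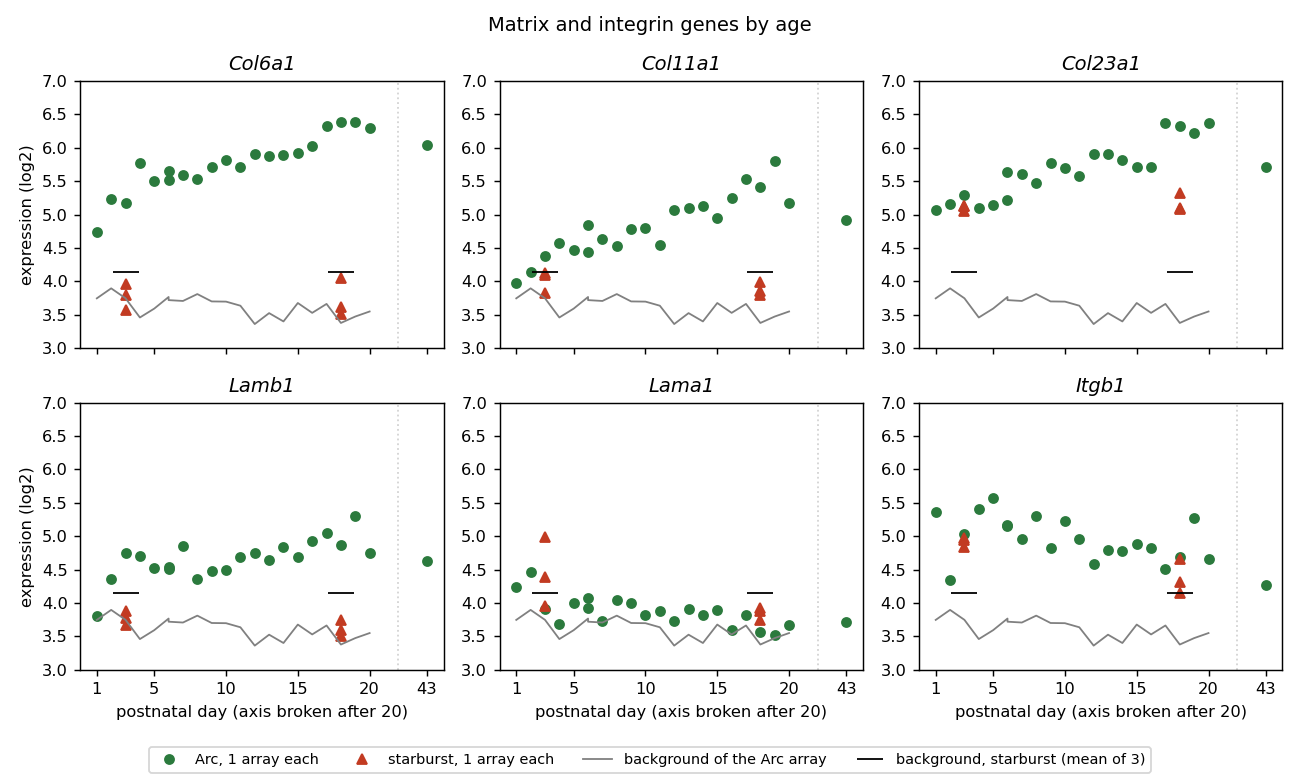
Expression (log2) of Col6a1, Col11a1, Col23a1, Lamb1, Lama1 and Itgb1 against postnatal day (axis broken after 20), with 1 point per array, circles for Arc and triangles for starburst cells. The grey line is the background of each Arc array and the black bars the mean background of the 3 starburst arrays of an age. The first 3 genes climb from P1 to P20 in Arc cells and have P43 values of 6.05, 4.92 and 5.71.

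**Figure D3:**
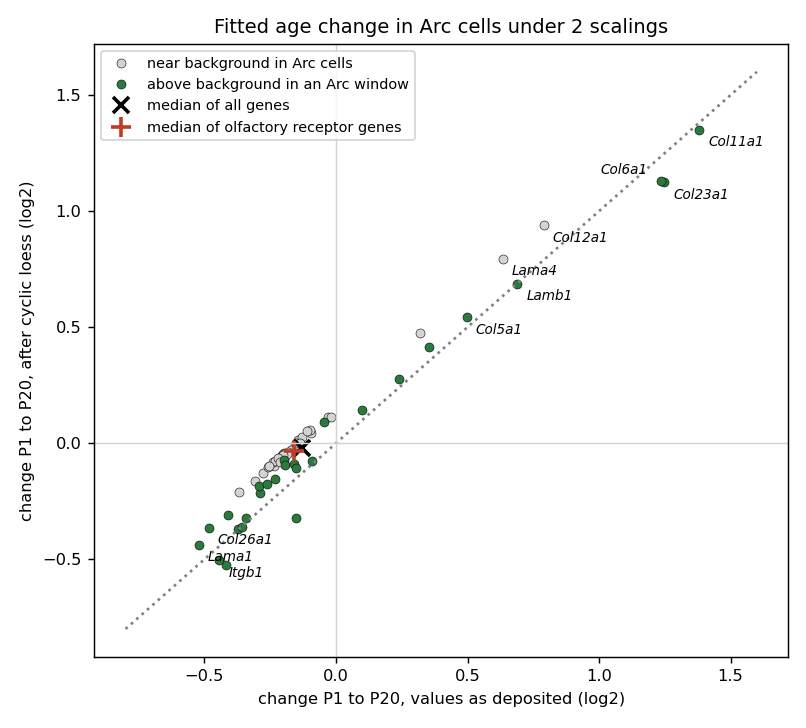
Fitted change from P1 to P20 of each member as deposited (horizontal axis, log2) and after cyclic loess (vertical axis, log2), with the dotted line marking equal values. The medians of all genes (-0.13 as deposited, -0.02 after loess) and of the olfactory receptor genes (-0.16 and -0.03) lie within the crowd of small negative changes. The 6 rises above background stand apart from it, and so do those of Col12a1, Lama4 and Itgav, which were near background in Arc cells.

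Markers of other cells also moved with age in Arc cells. Rod markers rose in 8 of 9 cases, with array means of 2.95 to 3.41 at P1 to P6 and 3.56 to 4.16 at P14 to P20, and Gnat1, the rod transducin, changed by 5.13 ± 0.49 (SE, limma adjusted p = 1.03e-08). Among 9 Muller glia markers, 2 rose (Glul and Dkk3) and 4 fell, and array means were 3.46 to 3.73 early and 3.78 to 4.05 late. Of 11 markers of pericytes, smooth muscle and fibroblasts, which use type VI collagen, Pdgfra alone rose, 4 fell, 1 to 2 were above background, and the array means were 2.75 to 3.04 over the windows of P1 to P20. Of the 11 vascular endothelial markers, 4 fell, and only Kdr and Egfl7 were above background. Of 11 microglia and leukocyte markers, 6 fell, and only Cx3cr1 and Cd68 were above background. Of 8 ganglion cell markers, 7 were above background in each window from P1 to P20, 2 rose and 3 fell, with array means of 3.66 to 4.18 early and 4.12 to 4.38 late. Among 6 bipolar cell markers 1 rose and 2 fell, and among 8 lens markers 3 fell. Astrocyte, pigment epithelium, erythrocyte and platelet markers were near background in all groups. The part of other cells in the changes of the members was not tested.

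In starburst cells, Col25a1, Itgav and Lamc1 rose between P3 and P18 and Itgb5 fell. The comparison of 3 with 3 arrays called 5 of 65 members, 4 higher and 1 lower, and called 8.65% of all genes, 4.76% higher and 3.89% lower. The median difference was -0.12 over the members, -0.06 over all genes and -0.11 over the olfactory receptor genes. Leaving out 1 array at a time gave 3 to 5 members. The 3 came without P18 replicate 3, when 5.95% of all genes were called.

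Col25a1, a transmembrane collagen whose shed ectodomain was first found in amyloid plaques of the human brain, had 3.31, 3.48 and 3.53 on the P3 arrays and 5.09, 5.48 and 5.68 on the P18 arrays. All P3 values were near background, and all P18 values were above it. The difference was 1.98 ± 0.19 (SE, n = 3 and 3, limma adjusted p = 2.48e-04), and set against the background of the P3 arrays the rise was at least 2.41-fold. Such a bound replaces the dim group by the background of its arrays where that is higher.

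Itgav, the alpha chain of receptors for vitronectin and fibronectin, had 3.73, 4.29 and 4.03 at P3 and 5.32, 4.76 and 5.49 at P18. The ages did not overlap, and 1 of the 3 P3 arrays was above its own background. The difference was 1.17 ± 0.23 (SE, n = 3 and 3, limma adjusted p = 0.0125), and it no longer passed without P18 replicate 1 or without P18 replicate 3, at adjusted p up to 0.0528. Itgb5, a beta chain that pairs with it, had 4.17, 4.03 and 4.29 at P3 and 3.01, 2.87 and 2.998 at P18, so that P3 was close to background and P18 within it. The difference was -1.21 ± 0.15 (limma adjusted p = 0.00118), and since only 1 of the 3 P3 arrays was above its own background, no fold is given.

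Lamc1 had 4.18, 4.06 and 3.90 at P3 and 5.06, 4.70 and 5.31 at P18, with no overlap, and differed by 0.98 ± 0.19 (SE, n = 3 and 3, limma adjusted p = 0.0124). At P3, 2 of the 3 arrays were above their own background, so the size of this difference rests on levels close to it. Lama4 was also called (0.83 ± 0.18, limma adjusted p = 0.0188), with means of 3.01 and 3.84, both near background. Lama1 had 3.96, 4.99 and 4.40 at P3 and 3.88, 3.75 and 3.93 at P18. Its P3 arrays differed from each other by more than a log2 unit, and the difference of -0.60 ± 0.24 did not pass (limma adjusted p = 0.200).

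Itgb1 had 4.97, 4.95 and 4.83 at P3 and 4.31, 4.15 and 4.65 at P18. The ages did not overlap, which was so for 27% of all genes, and the difference of -0.55 ± 0.17 did not pass (limma adjusted p = 0.0958). Col20a1 had 7.06, 6.89 and 6.18 at P3 and 7.85, 7.52 and 6.98 at P18, with overlap and a difference of 0.74 ± 0.28 (limma adjusted p = 0.163). Of the chains that rose in Arc cells, Col6a1 stayed near background in starburst cells, with 3.80, 3.58 and 3.96 at P3 and 4.06, 3.51 and 3.62 at P18. Col23a1 had 5.13, 5.13 and 5.05 at P3 and 5.33, 5.08 and 5.10 at P18.

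Among markers measured in the same starburst arrays, Kdr, an endothelial growth factor receptor, fell by 2.74 (limma adjusted p = 6.87e-05) and was the only endothelial marker called. The rod marker Gnat1 had a difference of 2.99 ± 0.17 (limma adjusted p = 1.89e-05), and 2 of 9 rod markers rose, with array means of 3.23 to 3.29 at P3 and 3.82 to 4.18 at P18. No marker of pericytes and fibroblasts was above background at either age. The part of other cells in the differences of the members was not tested.

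**Figure D4:**
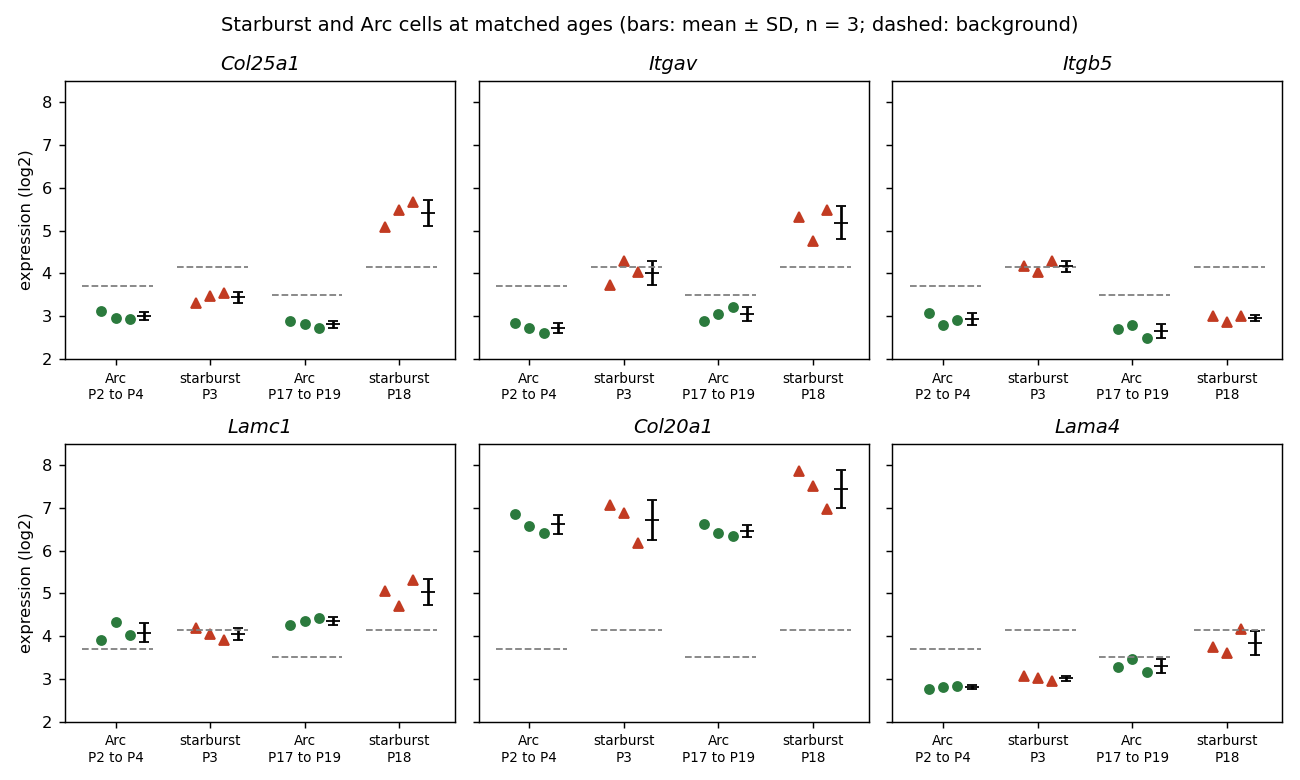
Expression (log2) of Col25a1, Itgav, Itgb5, Lamc1, Col20a1 and Lama4 on each array of Arc P2 to P4, starburst P3, Arc P17 to P19 and starburst P18, with the mean ± SD (n = 3) beside the points. Dashed lines are the mean background of the arrays of a group. Col25a1 is above it in starburst P18 alone, and Itgb5 reaches it in starburst P3 alone.

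Starburst and Arc cells were compared at matched ages, with Arc P2 to P4 standing in for replicates at P3 and Arc P17 to P19 at P18, all in 1 fit of 12 arrays. Near P3 the fit called 6 of 65 members, 4 higher and 2 lower in starburst cells, and 10.8% of all genes, 5.13% higher and 5.66% lower. After centring on array medians the split was 2 and 2 (10.7% of all genes called). The median difference was 0.18 over the members, 0.07 over all genes and 0.11 over the olfactory receptor genes.

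Col6a1 had 5.18, 5.24 and 5.77 as its lowest, median and highest value on the Arc arrays of P2 to P4, all above the 3 starburst values at P3. The difference was -1.62 ± 0.19 (SE, n = 3 and 3, limma adjusted p = 6.86e-05), at least 2.38-fold higher in Arc cells. Lamb1, with 4.36, 4.70 and 4.74 in Arc and 3.67, 3.78 and 3.88 in starburst cells, differed by -0.83 ± 0.15 (limma adjusted p = 0.00338), at least 1.37-fold. The 2 integrin chains called had higher values in starburst cells. Itgb5, with Arc values of 2.80, 2.92 and 3.07, differed by 1.23 ± 0.13 (limma adjusted p = 3.15e-05), and Itgav, with 2.61, 2.72 and 2.84 in Arc cells, by 1.29 ± 0.20 (limma adjusted p = 7.43e-04). Each was above its own background on 1 of the 3 starburst P3 arrays, whose background is higher than that of Arc arrays, so no fold is given for either. Itgb1 had means of 4.93 in Arc and 4.92 in starburst cells. Col1a1 (0.50, adjusted p = 0.0463) and Col11a2 (0.45, adjusted p = 0.0425) lay close to the threshold, and each was lost in 11 of 19 alternatives. Of 11 vascular endothelial markers 1 was higher in starburst cells and 0 lower, and of 11 microglia and leukocyte markers 0 were called. Bipolar cell markers had 2 higher and 1 lower, and Muller glia markers 1 and 1. The part of other cells in these differences was not tested.

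Near P18 the fit called 18 of 65 members, 13 higher and 5 lower in starburst cells, and 20.7% of all genes, 9.69% higher and 11% lower. The split was 6 and 5 after quantile normalization (15% of all genes called) and 4 and 6 after centring on array medians (20.3%), and the median difference was 0.26 over the members and 0.10 over all genes. The count was 9 without Arc P19 (11.6% of all genes called), 11 without Arc P17 (15.2%) and 10 without starburst P18 replicate 1 (13.6%). Groups did not overlap for 44.4% of all genes in this comparison.

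Col6a1 was again higher in Arc cells, with 6.32, 6.38 and 6.38 on the arrays of P17 to P19 against 3.51 to 4.06 in starburst cells. The difference was -2.63 ± 0.19 (SE, n = 3 and 3, limma adjusted p = 3.58e-07), at least 4.65-fold. Col11a1, with 5.42, 5.54 and 5.81 in Arc and 3.80, 3.86 and 3.99 in starburst cells, was at least 2.72-fold higher in Arc cells (limma adjusted p = 4.01e-06). Lamb1 was at least 1.90-fold higher there (limma adjusted p = 1.61e-05), from 4.87, 5.05 and 5.30 in Arc cells and 3.50, 3.60 and 3.74 in starburst cells. Col23a1 was above background in both, at means of 6.31 and 5.17, and differed by -1.14 ± 0.12 (limma adjusted p = 2.00e-05).

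Members higher in starburst cells near P18 were led by Col25a1 and Itgav. Col25a1 had 2.72, 2.82 and 2.89 on the Arc arrays, and the difference was 2.61 ± 0.15 (SE, n = 3 and 3, limma adjusted p = 5.73e-08). Itgav had 2.89, 3.06 and 3.22 on the Arc arrays, and the difference was 2.13 ± 0.20 (limma adjusted p = 4.20e-06). Both were near background in Arc cells. The array background was 4.002 to 4.34 on these starburst arrays and 3.38 to 3.66 on these Arc arrays, so no fold is given for either. Col20a1 differed by 0.98 ± 0.25 (limma adjusted p = 0.0133), a call lost without Arc P19 or without starburst P18 replicate 1. Lamc1 differed by 0.68 ± 0.17 (limma adjusted p = 0.0137), lost without Arc P17, without starburst P18 replicate 3 and after centring on medians. Col1a1 (0.57), Col7a1 (0.43) and Col9a3 (0.42) were each lost in 4 to 9 of 19 alternatives. The other 6 higher calls (Col9a1, Col15a1, Itgam, Itgb3, Itgb6 and Lama4) and the lower call of Col12a1 concerned levels near background in both cell types. Among markers of other cells, 5 of 11 for microglia and leukocytes (Itgam among them) and 3 of 11 for vascular endothelium were higher in starburst cells. In both lists 0 were lower, and the median difference was 0.40, against 0.13 over the olfactory receptor genes. Only 1 of the 11 microglia and leukocyte markers and 2 of the 11 endothelial markers were above background in starburst cells at P18. Muller glia markers had 2 higher and 2 lower, ganglion cell markers 1 and 2, and pericyte and rod markers 0 and 1 each. The part of other cells in these differences was not tested.

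**Figure D5:**
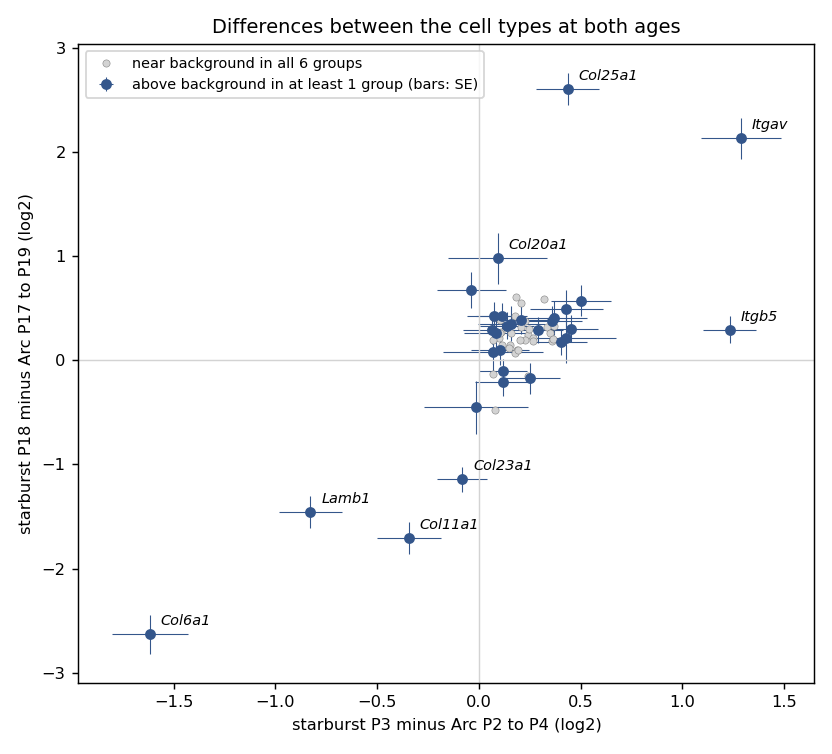
Starburst minus Arc difference of each member (log2) at P3 (horizontal axis) and P18 (vertical axis), with SE bars on the members above background in at least 1 of the 6 groups and grey points for the others. Col6a1 and Lamb1 lie low on both axes and Itgav high on both, while Col25a1 is set apart on the P18 axis and Itgb5 on the P3 axis.

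The changes with age were then compared between the cell types as an interaction, the change of starburst cells between P3 and P18 minus that of Arc cells between the windows P2 to P4 and P17 to P19. It called 4 of 65 members, 1 higher and 3 lower, and 4.02% of all genes, 1.67% higher and 2.36% lower. Col25a1 changed by 1.98 in starburst and by -0.19 in Arc cells, an interaction of 2.17 ± 0.22 (SE, 12 arrays, limma adjusted p = 6.53e-05). It was near background in 3 of these 4 groups of arrays, so this size rests on levels that were not measured there. Col11a1 changed by -0.14 and 1.23 (limma adjusted p = 0.00263) and Col23a1 by 0.06 and 1.13 (limma adjusted p = 0.00282), both more positive in Arc cells. In starburst cells Col11a1 was above its own background on 1 of 3 arrays at P3 and on 0 of 3 at P18. The size of its interaction therefore rests on levels at the background there. Itgb5 changed by -1.21 and -0.27 (limma adjusted p = 0.0104), with levels near background on most arrays. All 4 calls were kept in all 19 alternatives. For Col6a1, whose level rose in Arc cells, the interaction was -1.01 ± 0.26 and did not pass (limma adjusted p = 0.0506). The interaction did not pass for Itgav (0.84 ± 0.28, limma adjusted p = 0.134), Lamc1 (0.71 ± 0.24, adjusted p = 0.146) or Lamb1 (-0.63 ± 0.22, adjusted p = 0.158) either.

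Other genes of the matrix and its receptors, taken from 4 lists, were read in the same fits. Of 37 measured matrix glycoproteins, 4 rose and 18 fell with age in Arc cells (14.7% and 23% of all genes), with a median change of -0.18 against -0.16 for the olfactory receptor genes. After cyclic loess, applied to these lists after their values were seen, 5 rose and 7 fell (15% and 12.9% of all genes), with a median of -0.03. Tnc, the glycoprotein tenascin C, fell by 2.56 (limma adjusted p = 9.54e-07), from a mean of 5.14 early to 3.28 late, near background. Agrn, agrin of basement membranes, fell by 0.97 (limma adjusted p = 6.43e-07), while Spon1, the axon guidance protein F-spondin, rose by 2.50 (limma adjusted p = 2.32e-08). In starburst cells 2 rose and 0 fell (4.76% and 3.89% of all genes). The rises were those of Sparc, a collagen-binding glycoprotein (1.36 ± 0.15, limma adjusted p = 5.27e-04), and Npnt, an integrin ligand of basement membranes (0.95 ± 0.15, limma adjusted p = 0.00458), both near background at P3. Near P18, 5 of the 37 were higher and 4 lower in starburst than in Arc cells (9.69% and 11% of all genes).

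Of 29 measured genes of collagen and matrix processing, 6 rose and 9 fell with age in Arc cells (14.7% and 23% of all genes). After cyclic loess 6 rose and 4 fell (15% and 12.9% of all genes). Loxl2, a lysyl oxidase that crosslinks collagen, rose by 3.08 ± 0.21 (limma adjusted p = 2.74e-11), on the fitted line, from a mean of 3.34 at P1 to P6, near background, to 5.41 at P14 to P20. P4ha2 (1.07 ± 0.16), also near background early, and P4ha1 (0.95 ± 0.16), catalytic chains of collagen prolyl 4-hydroxylase, rose too. Bmp1, the procollagen C-proteinase, fell by 0.82 in Arc cells (limma adjusted p = 2.78e-06) and rose by 1.76 ± 0.15 in starburst cells (limma adjusted p = 1.36e-04). Its interaction was 2.48 ± 0.17 (limma adjusted p = 2.04e-06). That of Loxl2, near background in starburst cells at 3.08 and 3.22, was -2.32 ± 0.16 (limma adjusted p = 2.37e-06). In starburst cells 2 of the 29 rose and 0 fell (4.76% and 3.89% of all genes).

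Of 35 measured genes of the integrin adhesion complex, 5 rose and 7 fell in Arc cells (5 and 6 after cyclic loess), and 4 rose and 0 fell in starburst cells. Of all genes, 14.7% rose and 23% fell in Arc cells (15% and 12.9% after cyclic loess). In starburst cells 4.76% rose and 3.89% fell. Parva, the actin-binding parvin, had changes of 1.69 ± 0.14 in Arc (limma adjusted p = 1.15e-09) and 0.97 ± 0.19 in starburst cells (limma adjusted p = 0.0130). Tln2, the talin that links beta integrins to actin, had 1.61 ± 0.11 and 0.64 ± 0.16, the latter from a P3 level near background. Of 26 measured genes of the dystroglycan complex and other matrix receptors, 2 rose and 8 fell in Arc cells (3 and 3 after cyclic loess), and 5 rose and 1 fell in starburst cells. Dtna, a dystrobrevin, rose by 2.42 ± 0.13 in Arc cells (limma adjusted p = 1.33e-12), and Sdc2, a heparan sulphate proteoglycan of the cell surface, by 1.94 ± 0.18 in starburst cells (limma adjusted p = 2.42e-04), from a P3 level near background. Near P18, 9 of the 26 were higher and 2 lower in starburst cells (9.69% and 11% of all genes).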

How the data were processed

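The members, gene lists and tests were chosen with earlier results of these data known. RNA of sorted cells was hybridised to exon arrays, and the deposited values are log2 expression per transcript cluster; per the submitters' processing notes the authors used R 2.11.1, RMA and genome build mm8. The base of the logarithm is taken from RMA's convention, and which arrays were normalised together was not stated in the sources used here. Of 15170 rows, 13720 with 1 gene symbol were kept; 102 genes had several rows, of which the one with the highest mean over 28 arrays stood for the gene. All 13617 genes entered the tests without a filter on level, and the number of arrays limits the precision. Where labels do not say that samples came from separate animals, p-values measure only the spread between these samples.

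All tests used limma 3.58.1 in R 4.3.3 (lmFit, eBayes with a trend of variance on level), two-sided, with Benjamini-Hochberg adjustment over all genes at 0.05. P43 was held out of the trend. Members above background in a group of a test and past its threshold could be named with values, largest changes first, and the others are given by name, range or count; list genes could be named where they passed. Alternatives were other scalings (quantile, array medians, cyclic loess), a filter on genes near background, variance settings, array weights, the mean over a gene's rows, other arrays, each array left out and the replicate number as a block. The starburst ages share replicate numbers, and correlations of the deviations of same-numbered arrays were 0.05, 0.02 and -0.04. These showed no shared effect of the number, but so few arrays cannot exclude a pairing. The number was therefore used as a block only in an alternative. Promoters are from RefSeq (GRCm38.p6), with no gene coordinates taken from it otherwise, since the files use mm8.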

Additional observations from a re-analysis of the deposited data

Results flagged for a closer look

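For 4 members the change with age differed between the cell types by the test of the difference itself. The change from P3 to P18 in starburst cells minus that in Arc cells was 2.17 for Col25a1 (SE 0.22, limma adjusted p = 6.53e-05), with all 3 starburst P18 arrays above all 3 of P3 and levels near background in the other groups of arrays, on which the size rests. It was -1.36 for Col11a1 (SE 0.22, limma adjusted p = 0.00263). Its starburst levels were barely above background at P3, on 1 of 3 arrays above their own, and near background at P18, so the size rests on these levels. It was -1.06 for Col23a1 (SE 0.17, limma adjusted p = 0.00282), which was above background in every group. It was -0.94 for Itgb5 (SE 0.19, limma adjusted p = 0.0104), which was above background only in starburst cells at P3.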

How the results depend on the processing

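The count of members called in the Arc trend, 40 as reported, was 19 after quantile normalization, 21 after centring on array medians, 17 after cyclic loess, 21 among genes above background only and 9 with P1 to P16 only, and 28 to 45 with 1 array left out. Over all genes the trend called 5137 as reported (37.7%), 3844 after quantile normalization (28.2%), 3901 after centring (28.6%), 3804 after cyclic loess (27.9%), 3652 of 7389 above background (49.4%) and 1966 with P1 to P16 only (14.4%). With 1 array left out it called 30.6% to 41.2% of all genes. In starburst P18 against P3 the 5 members became 11 in a fit on all 28 arrays (2251 genes against 1178). They were 3 without P18 replicate 3 (5.95% of all genes called), and 3 to 5 over the arrays left out (5.95% to 6.67%). With the replicate number as a block 6 members and 7.78% of all genes were called. Near P3 the 6 members became 14 with 5 Arc arrays a side (2470 genes against 1469). With 1 array left out they were 4 to 7, with 931 to 1507 of all genes called. Near P18 the 18 (20.7% of all genes called) became 11 after quantile normalization (15%) and 10 after centring (20.3%). They became 32 with 5 Arc arrays a side (28.9%) and 9 to 19 with 1 array left out (11.6% to 21.1%). The interaction's 4 (4.02% of all genes called) became 8 with 5 Arc arrays a side (5.1%) and 4 to 5 with 1 left out (2.87% to 4.32%). Members above background at the 99th percentile numbered 10, 10, 16 and 6 in the Arc groups and 6 and 6 in starburst cells, and 8 and 10 in starburst cells when every array had to exceed its own background. Shares of all genes were not computed for these counts. Fewer arrays or genes enter some of these settings, and otherwise the cause was not tested. Over all tests, 43 calls concerned members above background in a group of the test, not all of them named above. Of these 43, 23 were kept in every alternative, 20 were lost in at least 1 and 0 reversed.

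Limits: Arc days other than P6 have 1 array each, so neighbouring days stand in for replicates, and P43 rests on 1 array. The background is higher on starburst than on Arc arrays, so differences that rest on levels near background are bounds or are not given as folds. Calls of members near background, and the split of small changes, follow the scaling.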
